A study of Sus scrofa with 10 samples.

Results

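The genes described here encode 10 receptors and related proteins by which macrophages take up spent proteins, lipoproteins, microbes and, in pigs, a virus. They are CD163, MARCO, MSR1, MRC1, STAB1, STAB2, SIGLEC1, CD5L, VSIG4 and CSF1R. The members were chosen by symbol, and each of the 10 matched 1 row among the 25880 genes of the deposited table. RNA was sequenced from Northeast Min pigs, a domestic breed, aged 60 days and given no treatment in the labels. There was 1 library from each of 9 tissues: lung, spleen, liver, subcutaneous adipose tissue, heart, the skeletal muscles psoas major and longissimus dorsi, kidney and ovary. Another came from a pool that by its label mixes these organs, with muscle not further named and adipose tissue left out. The number of animals is not given in the sources used here. Because each tissue was measured once, the differences between tissues carry neither an error nor a p-value.

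Macrophages of different organs share a core of genes and add sets of surface receptors suited to their site. Scavenger receptors bind modified lipoproteins, haemoglobin complexes, dying cells and bacteria and carry them into the cell for breakdown. In pigs CD163 is the receptor that porcine reproductive and respiratory syndrome virus (PRRSV) needs to enter macrophages, and SIGLEC1, also called sialoadhesin or CD169, is an attachment receptor for the same virus. Alveolar macrophages of the lung are a main target of that virus. Stabilins are also made by the sinusoidal endothelial cells that line the blood spaces of liver and spleen.

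Levels are FPKM, fragments scaled to the length of the gene model and to the size of the library, a unit inferred from the values because the table names none. FPKM is a level per length, so genes can be set side by side within a library. The libraries summed to between 292495 and 369254 FPKM, and the spacing of low values in short genes put their depth at 11.3 to 31.1 M fragments, uncertain by a factor of 2. Of 16 marker genes of tissue identity, such as SFTPC for lung, ALB for liver and TLX1 for spleen, each was highest in the tissue it marks, the pair for skeletal muscle being highest in longissimus dorsi. Differences are given on the log2(FPKM + 1) scale, where 1 stands for 2-fold and low genes are understated.

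On Sscrofa11.1, as the deposited table gives the coordinates, the members lie apart from each other. CD163 (ENSSSCG00000033146) spans bases 63300146 to 63334537 of chromosome 5, and STAB2 (ENSSSCG00000000854) bases 80694226 to 80858598 of the same chromosome. MSR1 (ENSSSCG00000006979) and SIGLEC1 (ENSSSCG00000007146) are both on chromosome 17, from 3857171 to 3939614 and from 31993886 to 32024790. MARCO (ENSSSCG00000015716) lies on chromosome 15 from 24502543 to 24545217, and MRC1 (ENSSSCG00000011038) on chromosome 10 from 44107072 to 44226925. STAB1 (ENSSSCG00000011443) lies on chromosome 13 from 34632247 to 34664420, and CD5L (ENSSSCG00000006455) on chromosome 4 from 92393744 to 92415839. VSIG4 (ENSSSCG00000035170) lies on chromosome X from 52175607 to 52198683, and CSF1R (ENSSSCG00000014441) on chromosome 2 from 151099084 to 151129407. The models of 4 members share bases with a neighbour, STAB1 with NT5DC2 (5172 bases), CSF1R with HMGXB3 (4047), SIGLEC1 with ADAM33 (1787) and CD5L with FCRL1 (879). Counting by strand is not stated, so reads from the shared bases may have been given to either gene.

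Together the 10 genes were most abundant in lung, at a sum of 778 FPKM or 0.259% of the library. Spleen followed with 413 FPKM, liver with 280 and adipose tissue with 176. The sum was 61.9 FPKM in heart, 60.5 in psoas major, 43.1 in ovary, 24.7 in kidney and 20.6 in longissimus dorsi. After median-of-ratios scaling, which evens out the libraries by their typical gene, the sums were 512 in lung, 502 in liver and 294 in spleen, so that liver and spleen changed places. In such bulk libraries fewer macrophages and less RNA per macrophage cannot be told apart. At 1 FPKM or more, 4 members (CD163, MRC1, STAB1 and CSF1R) were detected in each of the 9 tissues, beside 49.0% of the 15637 genes detected in at least 1 tissue. Liver was the tissue in which each of the 10 members reached 1 FPKM.

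**Figure D1:**
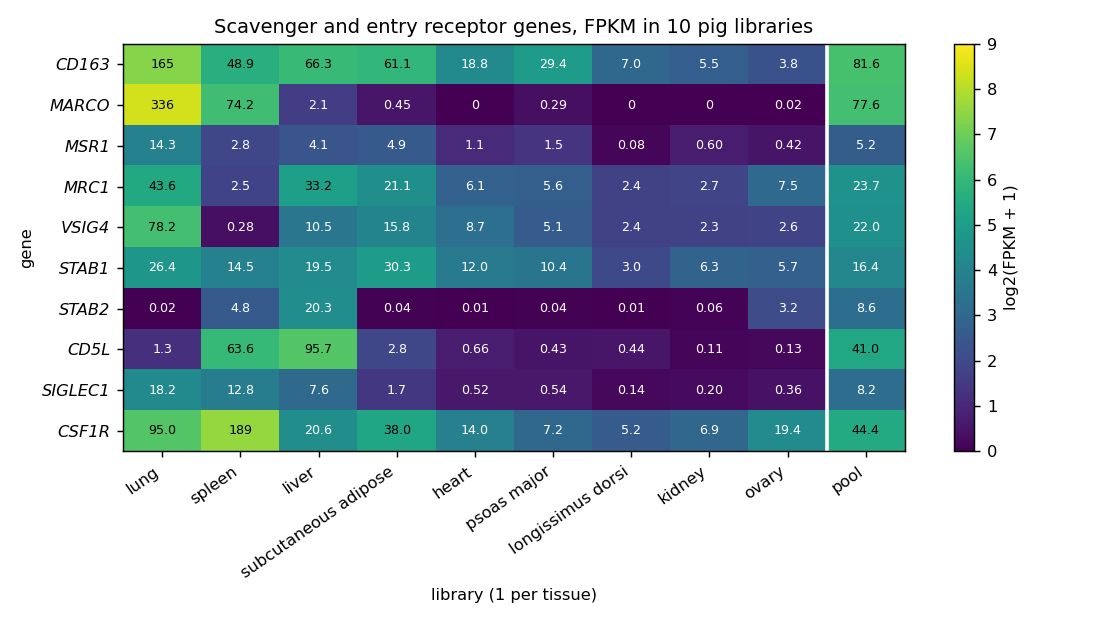
Level of each receptor gene (rows) in each library (columns), with the FPKM printed in each cell and the colour giving log2(FPKM + 1). Lung holds the highest value for CD163, MARCO, MSR1, MRC1, VSIG4 and SIGLEC1, spleen for CSF1R, liver for CD5L and STAB2, and adipose tissue for STAB1, each from 1 library, with the pool at the right.

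CSF1R encodes the receptor for the growth factors CSF1 and IL34, on which most tissue macrophages depend. It stood at 189 FPKM in spleen, 95.0 in lung, 38.0 in adipose tissue, 20.6 in liver, 19.4 in ovary, 14.0 in heart, 7.20 in psoas major, 6.93 in kidney and 5.20 in longissimus dorsi. Spleen and lung stood well above the rest, and the lowest 3 tissues lay close together.

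CD163 encodes the scavenger receptor for haemoglobin bound to haptoglobin, besides being the PRRSV receptor. It was at 165 FPKM in lung, 66.3 in liver, 61.1 in adipose tissue, 48.9 in spleen, 29.4 in psoas major, 18.8 in heart, 7.005 in longissimus dorsi, 5.50 in kidney and 3.79 in ovary. Lung was 2.49-fold above liver, whereas liver, adipose tissue and spleen followed each other closely. SIGLEC1, which binds sialic acids, had a steeper profile at lower levels. Its values were 18.2 FPKM in lung, 12.8 in spleen, 7.64 in liver and 1.74 in adipose tissue, and from 0.143 in longissimus dorsi to 0.539 in psoas major elsewhere. The ratio of SIGLEC1 to CD163 was 0.262 in spleen, 0.115 in liver and 0.110 in lung, but 0.0285 in adipose tissue and 0.0183 in psoas major. Of 8 listed PRRSV entry factors, which include both receptors, 4 were highest in adipose tissue and 3 in lung. The shares of all genes detected in at least 1 tissue that were highest there were 6.59% and 14.9%. CD209, a lectin with a reported role in PRRSV uptake, reached 295 FPKM in adipose tissue against 6.02 in lung and 0.0303 in spleen.

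MARCO and MSR1 encode class A scavenger receptors, which bind bacteria and modified lipoproteins. MARCO was concentrated in lung and spleen, with 336 FPKM in lung, 74.2 in spleen, 2.09 in liver, 0.451 in adipose tissue, 0.286 in psoas major and 0.0216 in ovary. It was listed at 0 in heart, longissimus dorsi and kidney. A listed 0 need not mean absence in this table, since CEBPA, a gene of hepatocytes and adipocytes, was listed at 0 in each library. MSR1 was lower than MARCO in lung and spleen and higher in the other 7 tissues. It stood at 14.3 FPKM in lung, 4.87 in adipose tissue, 4.14 in liver, 2.78 in spleen, 1.54 in psoas major, 1.12 in heart, 0.595 in kidney, 0.418 in ovary and 0.0796 in longissimus dorsi. Unlike MARCO, MSR1 thus placed adipose tissue and liver above spleen.

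MRC1, the mannose receptor CD206, clears glycoproteins, and VSIG4 is a complement receptor that binds C3 fragments. MRC1 was at 43.6 FPKM in lung, 33.2 in liver, 21.1 in adipose tissue, 7.50 in ovary, 6.14 in heart, 5.60 in psoas major, 2.72 in kidney, 2.55 in spleen and 2.37 in longissimus dorsi. VSIG4 was at 78.2 FPKM in lung, 15.8 in adipose tissue, 10.5 in liver, 8.68 in heart, 5.09 in psoas major, 2.57 in ovary, 2.39 in longissimus dorsi, 2.33 in kidney and 0.280 in spleen. Spleen, the library richest in CSF1R, thus had the lowest VSIG4 value of the 9 tissues and the second lowest MRC1 value. These low values rest on 1 spleen library and 1 gene model each, and whether they belong to the tissue or to the gene models cannot be told from this table. Per unit of CSF1R, VSIG4 stood at 0.823 in lung, 0.708 in psoas major, 0.619 in heart and 0.510 in liver. It was at 0.460 in longissimus dorsi, 0.415 in adipose tissue, 0.336 in kidney, 0.132 in ovary and 0.00148 in spleen.

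The stabilins STAB1 and STAB2 are large endocytic receptors, and STAB2 takes up hyaluronan. STAB1 had the smallest ratio of its highest to its lowest level among the 10 genes, with 30.3 FPKM in adipose tissue, 26.4 in lung, 19.5 in liver, 14.5 in spleen, 11.96 in heart, 10.4 in psoas major, 6.26 in kidney, 5.73 in ovary and 3.002 in longissimus dorsi. STAB2 reached 1 FPKM in 3 of the 9 tissues, with 20.3 in liver, 4.81 in spleen and 3.23 in ovary. It was at most 0.0577 FPKM in the other 6 tissues. The sinusoidal endothelial genes OIT3 (20.3 FPKM in liver, 0.965 in spleen) and CLEC4G (48.7 and 1.01) were likewise highest in liver, but the list as a whole was not. Of its 7 matched genes 3 were highest in liver, STAB2 among them, and 1 each in lung (LYVE1), kidney (F8), spleen (CLEC1B) and adipose tissue (STAB1). Over the 9 tissues STAB2 had a Pearson r of 0.30 with the mean of the pan-macrophage genes. This low r was not particular to STAB2, since VSIG4 had 0.29 and MRC1 0.42.

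CD5L encodes a secreted member of the scavenger receptor cysteine-rich family, to which CD163 also belongs, and is known from Kupffer cells, the macrophages of the liver. It stood at 95.7 FPKM in liver and 63.6 in spleen, and the next tissues were adipose tissue at 2.77 and lung at 1.32. The other 5 tissues lay between 0.110 in kidney and 0.663 in heart. CD5L and STAB2 were therefore high in the same pair of organs, although CD5L was at 0.133 in ovary.

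Of the 10 members 6 were highest in lung, where 14.9% of the genes detected in at least 1 tissue had their highest value. Liver held 2 members (background 5.60%), spleen 1 (18.9%) and adipose tissue 1 (6.59%). Of the 10 pan-macrophage genes, by contrast, 8 were highest in spleen, 1 in lung (CD68) and 1 in liver (CD14). The count of members depends on scaling. The background shares above hold for the deposited values only and were not worked out after rescaling, so they are no match for the rescaled counts. Median-of-ratios factors, which were 1.52 for lung and 0.558 for liver, put 3 members highest in lung (MARCO, MSR1 and VSIG4), 6 in liver and 1 in spleen. CD163 then stood at 119 in liver and 109 in lung.

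**Figure D2:**
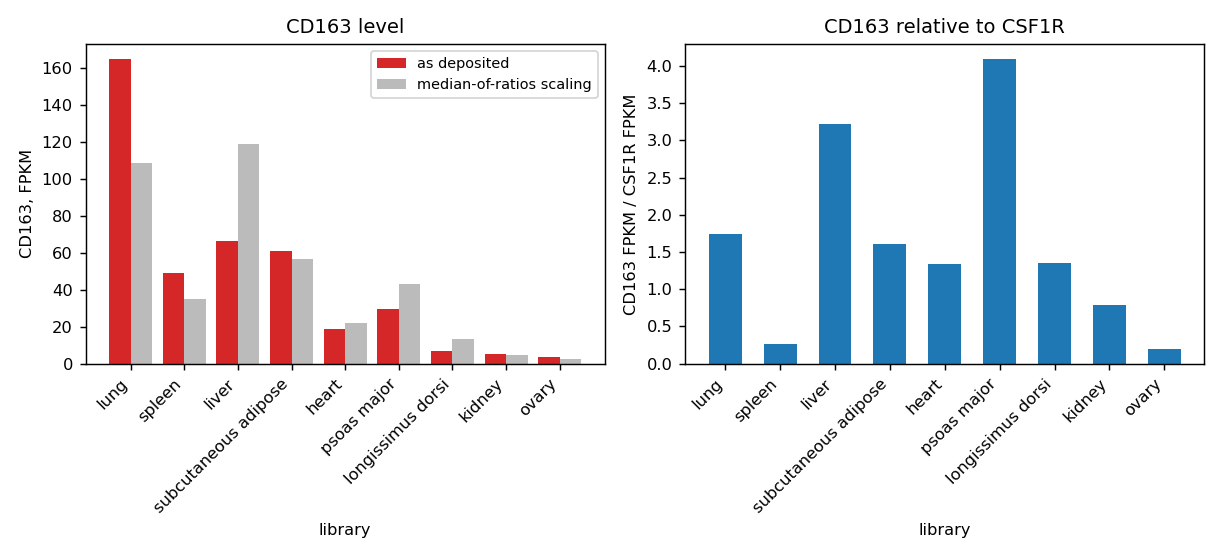
Left, CD163 in FPKM in the 9 tissues as deposited (red) and after median-of-ratios scaling (grey). Right, CD163 FPKM divided by CSF1R FPKM, which no scaling of a library can change, highest in psoas major (4.09) and liver (3.22) and lowest in spleen (0.259) and ovary (0.195). Each bar is 1 library.

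The comparison of lung with spleen sets 2 macrophage-rich organs side by side, one that meets inhaled material and one that filters blood. Of the 10 members, CD163, MARCO, MSR1, MRC1 and VSIG4 were at least 2-fold higher in lung, and CD5L and STAB2 at least 2-fold higher in spleen. Among all 13463 genes at 1 FPKM or more in either library, 16.4% were higher in lung and 8.79% in spleen by the same rule, and the median difference was 0.00. As lung minus spleen, VSIG4 differed by 5.95 (78.2 against 0.280 FPKM), and 25 genes, or 0.186%, lay as far towards lung. MRC1 differed by 3.65, MARCO by 2.16, MSR1 by 2.02 and CD163 by 1.73. On the spleen side CD5L differed by -4.80, and 14 genes lay as far that way. STAB2 differed by -2.51, with spleen at 4.81 and lung at 0.0220 FPKM. STAB1 (0.83) and SIGLEC1 (0.48) stayed under the threshold towards lung, and CSF1R, at -0.98, lay just short of it towards spleen and passed it under median-of-ratios scaling (-1.09).

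**Figure D3:**
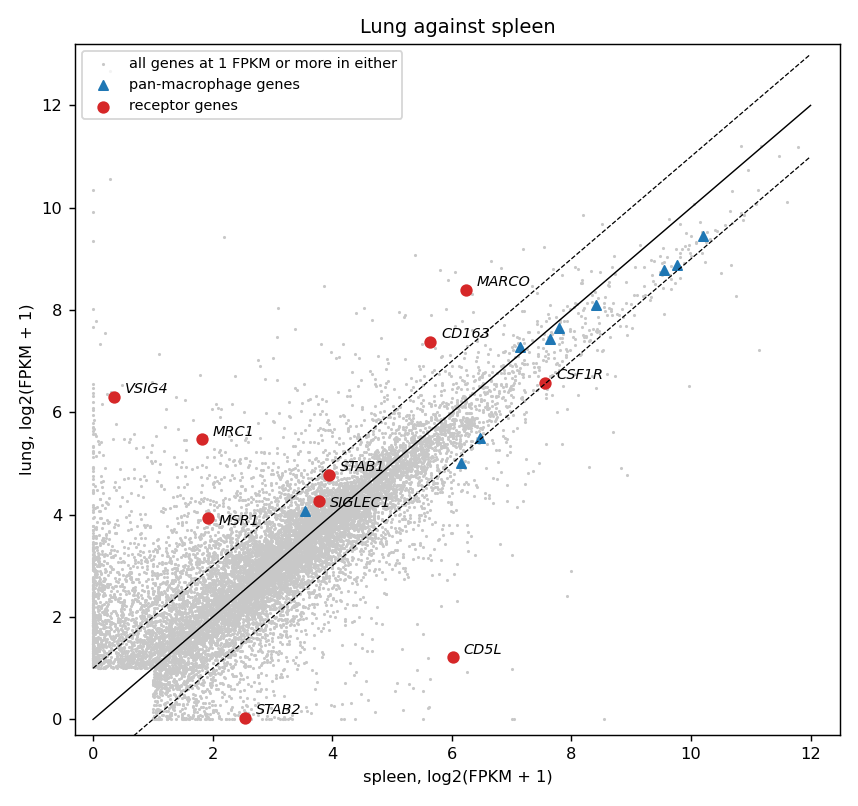
Level in lung (vertical) against spleen (horizontal) on the log2(FPKM + 1) scale for all genes at 1 FPKM or more in either library (grey), the 10 receptor genes (red) and the 10 pan-macrophage genes (blue triangles). The solid line marks equal levels and the dashed lines a difference of 1. VSIG4 and MRC1 lie far above the lines and CD5L far below, while the triangles lie near or below the solid line.

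The pan-macrophage genes leaned towards spleen by small differences, with 8 of the 10 below 0 and 2 above. None of the 10 was 2-fold higher in lung, AIF1 was higher in spleen, and their median difference was -0.54. Their summed level was 2500 FPKM in lung and 3858 in spleen. Of 6 tested sinusoidal endothelial genes, which include both stabilins, LYVE1 was higher in lung (36.5 against 3.63 FPKM), and STAB2 and CLEC1B in spleen. Of 9 haem and iron genes tested, 5 were higher in spleen, among them HMOX1, which breaks down haem (191 against 40.6), and 1 in lung, HP. Of 9 tested CSF1R ligands and macrophage transcription factors, CSF1, IRF8, MAF and SPIC were higher in spleen and none in lung. SPIC, a regulator of red pulp macrophages in mice, stood at 48.1 in spleen and 0.186 in lung.

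Genes of other cell types differed between lung and spleen too. Of 7 vascular endothelial genes tested 6 were higher in lung, with summed levels of 485 and 119 FPKM, and 5 of 6 fibroblast genes were also higher there (1391 and 497). All 6 B cell genes and 5 of 7 T cell genes were higher in spleen, with sums of 172 against 29.5 and 243 against 64.9 FPKM, and so were all 5 erythroid genes. The neutrophil list was divided, with S100A9 and S100A12 higher in lung and CXCR2 and MPO in spleen, at sums of 224 and 77.5. None of these markers was listed at 0 in either library. Their part in the differences of the members was not tested. The list of alveolar macrophage genes, which holds MARCO and SIGLEC1, had 2 genes higher in lung (MARCO and CD9) and 2 in spleen (PPARG and CARD9) of 8 tested.

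Liver was set beside lung and spleen because it holds Kupffer cells and sinusoidal endothelium. These comparisons share libraries with each other and with the one above. Given as lung minus liver and spleen minus liver, the median of all genes lay 1.10 towards lung and 1.05 towards spleen, and 54.8% of 13402 genes were 2-fold higher in lung than in liver and 52.5% of 12796 genes higher in spleen. Against that background 6 members were higher in lung, a share near that of all genes, and 2 in liver (background 9.0%). Relative to the median of all genes, MARCO remained far towards lung (5.67), and so did VSIG4 (1.68) and CSF1R (1.05), while MRC1 and STAB1 lay at -0.72 and -0.68. CD5L and STAB2 lay towards liver by -6.48 and -5.49. Median-of-ratios scaling left MARCO and VSIG4 higher in lung and put CD5L, STAB2 and MRC1 higher in liver. Of all genes 21.7% were then higher in lung and 22.5% in liver, so neither count of members lay far from that share. CD163 (1.30 as deposited) came to -0.13 and SIGLEC1 (1.15) to -0.18.

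Between spleen and liver the members leaned towards liver. MARCO (4.61) and CSF1R (3.14) were higher in spleen, and MRC1 (-3.27), VSIG4 (-3.17) and STAB2 (-1.88) in liver, where 10.9% of all genes were called. With median-of-ratios scaling 7 members were higher in liver, CD163 (-1.74) and CD5L (-1.90) among them, beside 22.7% of all genes. The split of all calls moved as well, from 82.8% towards spleen as deposited to 46.6% after scaling, and between lung and liver from 85.9% to 49.0% towards lung. Of the 10 pan-macrophage genes 9 were higher in lung and 9 in spleen than in liver, and CD14, a receptor for bacterial lipopolysaccharide, was the exception each time (85.7 FPKM in liver, 15.9 in lung and 10.7 in spleen). The neutrophil list summed to 4.11 FPKM in liver, the T cell list to 5.47 and the B cell list to 1.78, each below lung and spleen.

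To see how far each receptor followed other macrophage transcripts, its log2 level was set against the mean of the 10 pan-macrophage genes in the same library. That mean ran from 2.55 in longissimus dorsi to 7.67 in spleen. CSF1R kept closest to it, within a range of 1.78 over the 9 tissues, from -0.63 in lung to 1.15 in ovary. SIGLEC1 had a range of 2.12 and CD163 one of 3.72, from -2.03 in spleen to 1.70 in psoas major. The range of SIGLEC1 is understated, because it reached 1 FPKM in only 4 of the 9 tissues and the log2(FPKM + 1) scale flattens lower values. On this scale CD5L had the widest range, 7.72, from -6.00 in lung to 1.72 in liver. Next were VSIG4 with 6.92 and STAB2 with 6.73. CD5L reached 1 FPKM in 4 tissues and STAB2 and MARCO in 3 each. Their ranges are therefore flattened too, and the order of the ranges depends on the scale. Spleen gave the lowest relative value for CD163, MSR1, MRC1, STAB1, SIGLEC1 and VSIG4, that is for 6 of the 10 genes. This count depends on the scale too. A gene can lie at most 7.67 below the mean in spleen but only 2.55 below it in longissimus dorsi. In VSIG4 the other 8 tissues lay between -1.36 and -0.39, while spleen was at -7.31. MARCO was above the mean in lung (1.18) and below it in each other tissue.

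**Figure D4:**
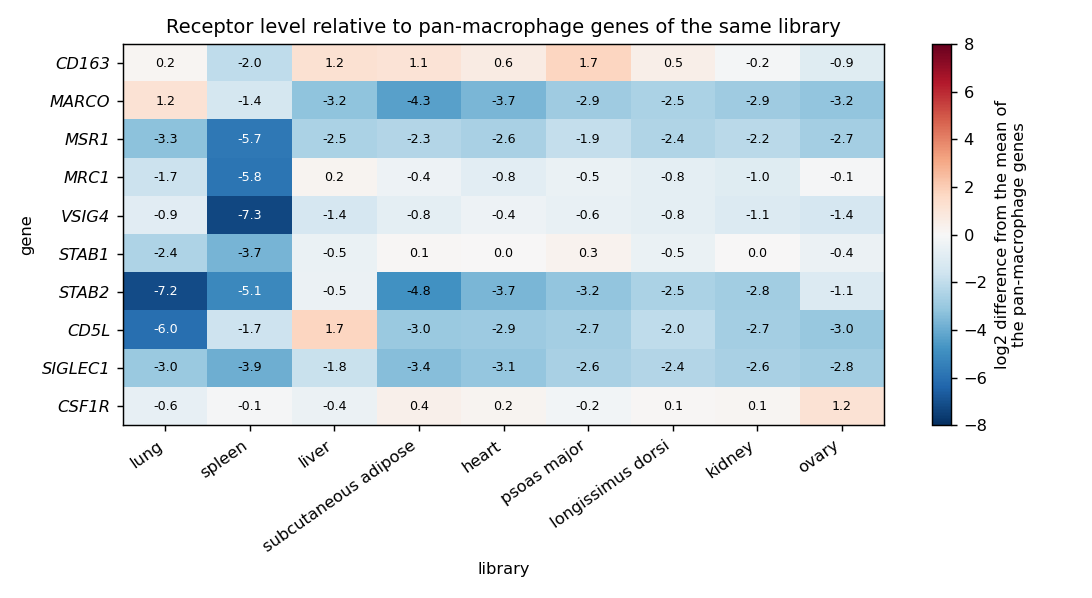
Difference between the log2(FPKM + 1) of each receptor gene and the mean of 10 pan-macrophage genes in the same library, for 9 tissues with 1 library each. Red cells lie above that mean and blue cells below it. Spleen is deep blue for VSIG4 (-7.3), MRC1 (-5.8) and MSR1 (-5.7), and CSF1R stays between -0.63 and 1.15.

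Psoas major and longissimus dorsi, muscles of the loin, were compared for CD163. It stood at 29.4 FPKM in psoas and 7.005 in longissimus, a 4.20-fold ratio and a difference of 1.93. Of the 10513 genes at 1 FPKM or more in either muscle, 63, or 0.599%, lay as far towards psoas. CD163 was not alone, since STAB1 (10.4 against 3.002, difference 1.51) and MSR1 (1.54 against 0.0796, difference 1.23) also passed the threshold towards psoas. All genes passed it in 4.66% of cases towards psoas and 2.09% towards longissimus, with a median of 0.27. MRC1 (0.97), VSIG4 (0.84) and CSF1R (0.40) lay above 0 without passing. MARCO, STAB2, SIGLEC1 and CD5L were under 1 FPKM in both muscles, so the comparison rests on 6 of the 10 members.

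The pan-macrophage genes also lay towards psoas, each of the 10 above 0 with a median of 0.67, and CD68, TYROBP and LAPTM5 passed the threshold. Their summed level was 104 FPKM in psoas and 64.8 in longissimus. Set against their mean, CD163 remained 1.24 higher in psoas, STAB1 0.82 and MSR1 0.55, and CSF1R was at -0.28. The ratio of CD163 to CSF1R was 4.09 in psoas and 1.35 in longissimus. Of the 10 haem and iron genes 4 were higher in psoas, among them HMOX1 (11.5 against 1.67 FPKM, difference 2.23) and the iron exporter SLC40A1 (20.2 against 7.67), and HPX was higher in longissimus. Of 5 tested complement receptor genes ITGAM, C5AR1 and CD59 were higher in psoas.

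Markers of blood, vessels, fibroblasts and lymphocytes mostly stayed under the threshold between the muscles, HBB and POSTN being past it in opposite directions. Of 9 tested tissue identity genes, 3 were past it towards longissimus and none towards psoas. As psoas against longissimus they were ALB (0.0864 against 25.0 FPKM, difference -4.58), MYH4 (473 against 1966, -2.05) and PLIN1 (2.17 against 6.56, -1.25). The beta globin gene HBB was at 198 FPKM in psoas and 70.1 in longissimus, a difference of 1.49. None of 7 vascular endothelial genes passed the threshold (sums of 99.0 and 90.2), and of 6 fibroblast genes POSTN was higher in longissimus (sums of 888 and 1426). The neutrophil list summed to 4.28 and 5.41 FPKM with MPO listed at 0 in psoas, the T cell list to 1.16 and 1.09, and the B cell list to 0.889 and 0.845. The part of blood or of other cells in the CD163 difference was not tested. Median-of-ratios scaling reversed the balance of all calls, from 69.0% to 37.1% towards psoas, but left CD163 at 1.62 and the same 3 members called.

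**Figure D5:**
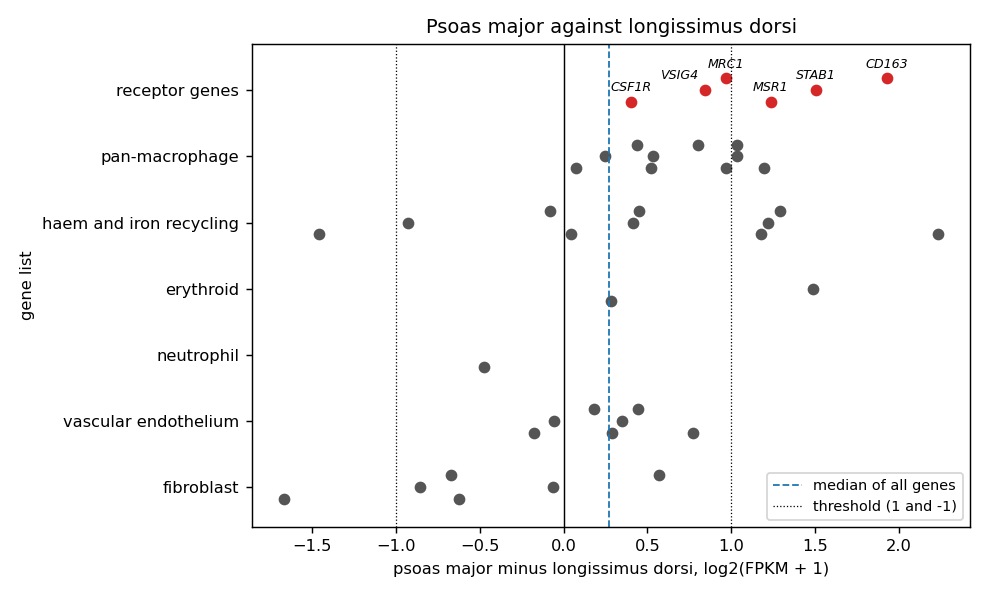
Difference between psoas major and longissimus dorsi on the log2(FPKM + 1) scale for genes at 1 FPKM or more in either muscle, by gene list, with 1 point per gene. The 6 receptor genes (red) lie to the right of 0 with CD163 farthest at 1.93, the pan-macrophage genes lie between 0.07 and 1.197, and the fibroblast genes lie mostly to the left.

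Over the 9 tissues the members formed several patterns rather than one. The median Pearson r over the 45 pairs was 0.65, as a description of libraries that differ in depth and cell make-up. CD163 ran with MSR1 (0.95) and STAB1 (0.90), MARCO with SIGLEC1 (0.91), MRC1 with VSIG4 (0.87) and STAB2 with CD5L (0.82). VSIG4 had an r of -0.13 with CD5L and -0.23 with STAB2. With the mean of the pan-macrophage genes, r was 0.96 for CSF1R, 0.95 for SIGLEC1, 0.92 for MARCO, 0.81 for MSR1, 0.80 for CD163, 0.72 for STAB1, 0.62 for CD5L, 0.42 for MRC1 and 0.29 for VSIG4.

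Among 11209 other named genes at 5 FPKM or more in a tissue, those nearest to each member over the 9 tissues included further macrophage genes. SIGLEC1 was nearest to TIMD4, a phosphatidylserine receptor (r 0.991, at 60.6 FPKM in lung, 29.9 in spleen and 19.7 in liver), EMR4 (0.982) and CFP, complement properdin (0.979). CD5L was nearest to CLEC4F, a Kupffer cell lectin in mice (0.980), which stood at 17.0 FPKM in spleen, 16.2 in liver and 0.236 in lung, and then to TMEM150B and SLCO2B1. MSR1 was nearest to ADGRE1, the gene of the mouse macrophage marker F4/80 (0.917, with 354 FPKM in lung and 13.5 in spleen), DUSP1 and FGR. CD163 was nearest to C4BPA (0.935), POLD4 (0.930) and DUSP1 (0.879). MARCO was nearest to NFAM1, CCRL2 and IKZF3, and CSF1R to APBB1IP, TNFAIP3 and HERC6, each at 0.98 or 0.99. STAB2 was nearest to MED8, FADS2 and OIT3 (0.911 to 0.908), and STAB1 was near to ECM1 (0.885) and RGCC (0.868). VSIG4 was nearest to EVI2B (0.961), whose spleen value of 0.291 FPKM was also the lowest of the 9 tissues against 24.0 in lung, and then to MYH14 and FMO2. For MRC1 the nearest were CSTF2T (0.941), listed at 0 in 6 tissues, FN1 and ARHGEF26.

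Other scavenger and phagocytic receptors had homes of their own. Of 19 matched genes 7 were highest in lung, 5 in adipose tissue, 4 in ovary and 1 each in spleen, heart and longissimus dorsi. The background shares were 14.9% for lung, 6.59% for adipose tissue and 28.7% for ovary. CD36, a fatty acid and lipoprotein receptor that adipocytes, muscle and endothelium also make, was at 554 FPKM in adipose tissue, 184 in heart and 0.426 in liver. LRP1, a broad endocytic receptor, was highest in adipose tissue (122) and ovary (100.4). Between lung and spleen 5 of 18 tested genes of this list were higher in lung and 1 in spleen, with a median of 0.61. The largest difference was that of AGER (7.23, 685 against 3.56 FPKM). AGER is also a tissue identity gene for lung here, and it is counted among the genes highest in lung. Between the muscles none of 17 passed either way.

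In the pool each of the 10 members lay between the lowest and the highest of the tissues named in its label. CD163 was at 81.6 FPKM there, MARCO at 77.6, CSF1R at 44.4, CD5L at 41.0, MRC1 at 23.7, VSIG4 at 22.0 and STAB1 at 16.4. The other 3 members stood at 8.57 (STAB2), 8.22 (SIGLEC1) and 5.23 (MSR1).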

How the data were processed

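The authors deposited 1 table with a value per gene and library, read here as FPKM because the values are not whole and StringTie is named. The submitters' processing notes name StringTie 1.2.2, TopHat2 2.1.0 and the Sscrofa11.1 assembly. Annotation release, strandedness and filters were not given in the sources used here. Without counts, no count model was run.

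Names were taken from Ensembl identifiers (14857 genes) and otherwise from RefSeq genes of the same assembly with a reciprocal overlap of at least 0.5 (1714 genes), which named STAB2 and CD5L. Members, gene lists and comparisons were chosen with earlier results of these data known. Differences used a pseudocount of 1, and a gene was compared at 1 FPKM or more in either library and called at a difference of 1 or more. Named genes were the members, genes of the lists, and the 3 genes of highest Pearson r with each member, of which 1 is not reported here. Depth was read from steps in values of genes spanning 400 to 1500 bases. Alternatives varied the pseudocount, filter, scaling, threshold and names. Procedures were tested on simulated data. Python 3.11.15, numpy 2.4.6, pandas 2.3.3 and matplotlib 3.10.9 were used.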

Additional observations from a re-analysis of the deposited data

How the results depend on the processing

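No paired analysis was possible because each tissue has 1 library. Of 78 alternatives for the counts and medians of the members, 64 gave a value within 1.5 times of the reported count (for the median r, within 0.1). Median-of-ratios scaling changed most where liver was involved: members higher in lung than in liver went from 6 to 2, members higher in liver than in spleen from 3 to 7, members highest in lung from 6 to 3, in liver from 2 to 6 and in adipose tissue from 1 to 0. Of all genes 21.7% were higher in lung than in liver under it, and 22.7% higher in liver than in spleen. Shares of all genes by highest tissue are not given under it. The lung against liver differences of CD163 (-0.13) and SIGLEC1 (-0.18) reversed with this scaling. With Ensembl names alone STAB2 and CD5L drop out, so members higher in spleen than in lung, and in liver than in lung, went from 2 to 0. A pseudocount of 5 left 1 member higher in spleen than in lung, also relative to the pan-macrophage genes, and 1 member, CD163, higher in psoas than in longissimus, while a pseudocount of 0.1 gave 5 there. A threshold of 2 gave 3 members higher in lung than in liver and 0 higher in psoas. At 5 FPKM 1 member was detected in each tissue. Over all genes and alternatives, calls between lung and spleen ran from 806 to 2668 (2204 as reported) towards lung. Towards spleen they ran from 254 to 1595 (1184 as reported). Between the muscles they ran from 58 to 1024 (490 as reported) towards psoas and 39 to 549 (220 as reported) towards longissimus. Against liver, calls towards lung ran from 2585 to 8396 (7340 as reported) and towards spleen from 2192 to 7763 (6722 as reported). Calls towards liver ran from 709 to 2937 (1206 as reported, lung) and from 818 to 2867 (1393 as reported, spleen). The causes were not tested. Single libraries limit each statement to these libraries, and values well under 1 FPKM rest on few fragments.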
